A study of Mus musculus with 18 samples.

Results

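A group of 10 mouse genes is described whose levels moved in opposite directions in 2 fibroblast lines when the medium was made hypertonic: Map2k6, Fgf10, Zfp518a, Scrn3, Ttc30a1, Bola1, Amacr, Tmem229b, Zfp454 and Nuak2. They were chosen by name from these same arrays, for a change from isotonic to hypertonic medium that ran one way in cells with intact Nfat5 and the other way in cells without it. Each gene was read from the probe set that names it alone, and the one with the highest mean where there were several. All 10 passed the filter on low values, among 15711 genes that did so and 19937 that had a probe set of their own. Because the changes in the 2 lines, and the difference between them, decided the choice, they are given below as a description without a test.

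The arrays measured total RNA of mouse embryonic fibroblasts (MEFs) of strain 129sv/ev, with 3 arrays in each of 6 groups. Cells of the NFAT5 wild-type line 5.4 (WT) were taken from isotonic and from hypertonic medium without an inhibitor, and again from both media after pretreatment for 1 h with 100 nM Torin1, which blocks the kinase mTOR. Cells of the NFAT5 knock-out line 5.1 (KO) were taken from both media and never received Torin1. Titles mark isotonic samples with 300 and hypertonic ones with 500, without a unit, and the labels do not state how long the cells were in hypertonic medium. Each genotype is 1 line, so a difference between the lines cannot be told apart from a difference between the genotypes. The arrays of a group carry the numbers 1, 2 and 4, which name them below, and nothing says whether they came from separate cultures, so a p-value measures only the spread between these arrays.

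The values are array signals on the log2 scale, where a difference of 1 is a doubling, and signals of different genes are not set against each other. Array medians lay between 6.96 and 7.13, and arrays of a group correlated with r of 0.968 to 0.997 across probe sets. Isotonic KO array 1 is titled KO while its genotype label says wild-type. The 5007 genes used to place it were picked by the gap between KO and WT on the hypertonic arrays. On these genes it lay at 1.01, where 0 is the isotonic WT mean and 1 the mean of isotonic KO arrays 2 and 4. It was kept with the KO arrays, and the KO changes are also given without it. Nfat5 itself read 9.94 to 10.77 on WT arrays and 9.72 to 10.22 on KO arrays; its probe set spans the transcript and cannot check a partial deletion. Fibroblast markers averaged 11.46 to 11.85 over 8 genes on WT arrays and 12.38 to 12.6 on KO arrays, all 8 above the filter. Among them Thy1 read 6.69 to 7.22 on WT and 10.64 to 11.27 on KO arrays, and Vim 13.81 to 13.99 on both. The 4 adipocyte markers averaged 6.45 to 6.89 against 7.85 to 8.83. Pparg read 6.69 to 7.91 against 10.22 to 11.73, while Plin1 read 6.49 to 6.93 against 6.55 to 7.1. The averages thus do not stand for each marker, and their part in the line differences was not tested.

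NFAT5, also called TonEBP, is the transcription factor that mammalian cells use to survive hypertonic medium. It enters the nucleus and switches on transporters and enzymes that let the cell gather organic osmolytes in place of salt. Kinases of the p38 pathway are among its known activators, and mTOR, the target of Torin1, couples growth to nutrients and stress. Of the genes described, Map2k6 encodes MKK6, a kinase that phosphorylates and activates p38, and Nuak2 encodes a kinase of the AMPK family that the tumour suppressor kinase LKB1 activates. Fgf10 is a ligand that mesenchymal cells secrete to epithelium through the receptor Fgfr2b. Zfp518a and Zfp454 encode zinc finger proteins of the nucleus. Ttc30a1 encodes a subunit of the intraflagellar transport particle that builds cilia, Bola1 a mitochondrial protein of the BolA family, which works with iron-sulfur cluster proteins, and Amacr a racemase of peroxisomes and mitochondria that prepares branched-chain fatty acids and bile acid intermediates for oxidation. Scrn3 belongs to the secernin family and Tmem229b encodes a membrane protein, both with roles that are little described.

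The start-site windows of Map2k6, Fgf10 and Zfp518a are shown because these genes had the largest difference between the lines among the members with a window in the table of mouse promoters. The windows come from RefSeq on GRCm38.p6 and hold 300 bases around a start site, 5' to 3' on the strand of the gene, with positions counted from that site. They lie at chr11:110398852-110399151 on the plus strand for Map2k6, the first of its 3 windows, at chr13:118714449-118714748 on the plus strand for Fgf10, and at chr19:40894455-40894754 on the plus strand for Zfp518a. Capitals mark a match to a motif searched, which is AP-1 in Map2k6 and TonE, the site NFAT5 binds, in Fgf10.
Map2k6: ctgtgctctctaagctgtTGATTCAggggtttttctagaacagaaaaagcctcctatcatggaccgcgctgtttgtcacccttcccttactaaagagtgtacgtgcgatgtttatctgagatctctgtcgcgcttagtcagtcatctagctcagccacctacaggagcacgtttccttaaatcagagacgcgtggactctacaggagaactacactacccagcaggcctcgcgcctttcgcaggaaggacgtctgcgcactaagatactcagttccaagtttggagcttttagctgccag
Fgf10: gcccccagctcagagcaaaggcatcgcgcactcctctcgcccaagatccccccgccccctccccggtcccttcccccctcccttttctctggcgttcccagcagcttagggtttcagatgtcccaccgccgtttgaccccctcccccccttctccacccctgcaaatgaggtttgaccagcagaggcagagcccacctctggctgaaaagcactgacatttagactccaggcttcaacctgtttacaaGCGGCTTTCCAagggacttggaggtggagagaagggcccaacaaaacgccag
Zfp518a: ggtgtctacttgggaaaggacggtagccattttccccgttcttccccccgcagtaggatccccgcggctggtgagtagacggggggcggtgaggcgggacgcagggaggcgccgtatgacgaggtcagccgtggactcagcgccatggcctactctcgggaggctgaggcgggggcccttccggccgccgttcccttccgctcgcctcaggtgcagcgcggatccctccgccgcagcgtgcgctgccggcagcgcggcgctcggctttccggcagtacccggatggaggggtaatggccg

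Windows were found for 8 of the 10 genes, 12 in all, and none for Nuak2 and Amacr. The NFAT core TGGAAA, read on both strands, stood in 1 of the 12, that of Fgf10, against 17.0% of the 15541 windows of all tested genes. In the Fgf10 window this core is part of the TonE match, which lies on the reverse strand from base -2, and TonE stood in 3.78% of all windows. The AP-1 motif TGANTCA stood in the first window of Map2k6, from base -232, against 5.72% of all windows. CCAAT was found for Scrn3, Tmem229b and Ttc30a1 and in 36.8% of all windows, and CACGTG for no member and in 9.21% of all windows. The Zfp518a window held none of the 5 motifs and was 70.3% G and C, above the median of 59.7%. These are matches of letters within 300 bases and describe no binding.

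The kinase gene Map2k6 showed the largest line difference of the 10. In isotonic WT cells arrays 1, 2 and 4 gave 5.41, 5.93 and 5.97, and in hypertonic WT cells 6.74, 7.0 and 6.97. The KO arrays gave 7.77, 7.44 and 6.86 in isotonic medium and 6.12, 5.98 and 6.19 in hypertonic medium. The groups did not overlap in either line, and the isotonic KO arrays stood above the isotonic WT arrays while the hypertonic ones stood below. With Torin1 the WT levels were 5.49, 5.64 and 5.37 in isotonic medium and 6.09, 6.60 and 5.97 in hypertonic medium. The change was 1.14 ± 0.21 (log2, standard error, n = 3 per group), or 2.2-fold, in WT cells and -1.26 ± 0.21, 2.4-fold lower, in KO cells. The isotonic WT arrays lay around the filter level of 5.86, the 30th percentile of all signals, where an array signal compresses changes. The isotonic Torin1 arrays lay below this level and the hypertonic KO arrays near it, so changes that rest on them have the same limit.

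Other kinases that feed the stress kinases were read beside Map2k6. Map2k3, which encodes the second main p38 activator, gave 0.59 ± 0.17 in WT and rose by 0.64 ± 0.17 in KO cells (limma, adjusted p = 0.00905). Its WT value had an adjusted p of 0.0413, a call lost when any of 11 of the 18 arrays was left out, with adjusted p from 0.00139 to 0.2 over 29 alternatives. Map2k4, which acts mainly on JNK, gave 0.10 ± 0.10 and 0.17 ± 0.10 and passed in neither line. Of the 29 tested genes of the p38 cascade, 3 were higher and 1 lower in hypertonic WT cells and 10 were higher and 3 lower in KO cells, or 13.8% and 44.8% where 8.24% and 30.1% of all genes were called. With each array centred on its median, which raised the median KO change of all genes from 0.02 to 0.18, the KO count was 18 higher and 2 lower. Dusp1, a phosphatase that switches p38 off, rose by 1.22 ± 0.22 in WT (adjusted p = 0.0038) and by 0.89 ± 0.22 in KO cells (adjusted p = 0.00534), the latter lost in a fit of the KO groups alone (adjusted p = 0.0557) and with isotonic KO array 1 counted as WT (adjusted p = 0.349). Mapk11, which encodes p38 beta, fell by 0.91 ± 0.20 in WT (adjusted p = 0.0108) and by 1.02 ± 0.20 in KO cells (adjusted p = 0.00106). Dusp16, a phosphatase that acts on JNK and p38, rose in KO cells by 1.17 ± 0.21 (adjusted p = 0.000618) and gave -0.33 ± 0.21 in WT cells (adjusted p = 0.405).

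Nuak2 was the one gene of the 10 that ran the other way. On arrays 1, 2 and 4 it read 11.19, 11.01 and 10.32 in isotonic and 9.90, 9.93 and 9.76 in hypertonic WT cells, a change of -0.98 ± 0.20 or 1.98-fold lower. In KO cells it read 7.99, 7.77 and 8.15 and then 8.93, 9.02 and 8.99, a change of 1.01 ± 0.20 or 2.01-fold higher. Every KO array lay below every WT array, and the gap between the lines narrowed from -2.87 ± 0.20 (KO minus WT, 7.31-fold lower) in isotonic to -0.88 ± 0.20 in hypertonic medium. Torin1 arrays gave 11.12, 11.19 and 10.64 in isotonic medium and 10.73, 10.53 and 10.17 in hypertonic medium, which overlap. With Torin1 the hypertonic arrays stood above the hypertonic WT arrays without it, by 0.62 ± 0.20.

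The nearest relative, Nuak1, gave -0.26 ± 0.17 in WT and 0.24 ± 0.17 in KO cells and passed in neither. Among 25 LKB1 and AMPK-related kinase genes, 0 passed in WT cells by limma, where 8.24% of all genes did, and 7 were higher and 5 lower in KO cells, where 30.1% of all genes passed. Mark2, a polarity kinase, rose in KO cells by 0.69 ± 0.09 (adjusted p = 5.59e-05), and Sik3, a salt-inducible kinase, by 0.80 ± 0.14 (adjusted p = 0.000413). Strada, the pseudokinase that activates LKB1, fell in KO cells by 1.20 ± 0.21 (adjusted p = 0.000418), and Cab39l, which holds that complex together, by 0.87 ± 0.16 (adjusted p = 0.000893). In WT cells 6 of the 25 had an unadjusted p below 0.05.

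Fgf10 was higher in hypertonic WT cells and lower in hypertonic KO cells, and it was also the gene of the 10 with the widest gap between the lines in hypertonic medium. It read 9.48, 9.13 and 9.44 in isotonic and 10.35, 10.14 and 10.56 in hypertonic WT cells. The KO arrays read 7.58, 7.79 and 6.98 and then 6.21, 6.44 and 5.90, so that no KO array reached a WT array. Torin1 arrays read 9.42, 9.14 and 9.70 in isotonic medium and 10.62, 10.52 and 10.69 in hypertonic medium, close to the arrays without Torin1. The change was 1.00 ± 0.20 in WT, 2.0-fold, and -1.27 ± 0.20 in KO, 2.41-fold lower. The KO minus WT difference went from -1.90 ± 0.20 in isotonic to -4.17 ± 0.20 in hypertonic medium. The hypertonic KO arrays lay near the filter level of 5.86, where signals are compressed, so no fold is given for the hypertonic difference. The KO change of 2.41-fold rests on the same arrays and has the same limit.

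Fgf7, a ligand of the same subfamily, gave 0.06 ± 0.47 in WT and -0.02 ± 0.47 in KO cells, and its standard error leaves room for changes of the size seen for Fgf10. Of 27 tested ligands, receptors and feedback genes of the FGF pathway, 2 were higher in hypertonic WT cells and 5 lower in KO cells. These are 7.41% and 18.5% of the list, where 8.24% and 30.1% of all genes were called. With arrays centred on their medians the 5 kept a negative KO change, and 4 of them, Fgfr2, Spred2, Spred3 and Flrt3, were no longer called while Etv5 was. Under that scaling 2 genes of the list were called higher and 1 lower in KO cells. In the main scaling the KO calls of Etv5, Spred2 and Flrt3 were each lost in 4 of the fits with 1 array left out.

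The zinc finger gene Zfp518a had the largest fall in KO cells. It read 8.74, 9.09 and 9.24 in isotonic and 9.28, 9.75 and 9.89 in hypertonic WT cells, and 9.05, 8.98 and 8.53 and then 7.62, 7.43 and 7.37 in KO cells. The isotonic arrays of the lines overlapped, and the separation came with hypertonic medium. The changes were 0.61 ± 0.18 in WT and -1.38 ± 0.18 in KO, 2.6-fold lower, which left a KO minus WT difference of -2.16 ± 0.18 in hypertonic medium. Torin1 arrays read 8.79, 8.92 and 8.91 in isotonic medium and 9.33, 9.53 and 9.14 in hypertonic medium, without overlap. Its relative Zfp518b gave 0.17 ± 0.16 in WT and -0.06 ± 0.16 in KO cells and passed in neither.

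Zfp454, a KRAB zinc finger gene, read 7.84, 7.89 and 7.75 in isotonic and 8.46, 8.75 and 8.58 in hypertonic WT cells. KO arrays read 8.41, 8.09 and 7.80 and then 7.77, 7.41 and 7.42, where the lowest isotonic and the highest hypertonic array lay 0.04 apart. The changes were 0.77 ± 0.15 and -0.57 ± 0.15, and the latter was -0.42 without isotonic KO array 1. With Torin1 the levels were 7.78, 7.76 and 7.40 and then 8.38, 8.31 and 8.35. KRAB proteins act through the co-repressor Trim28 and histone methyltransferases. The list read here is wider, with 10 zinc finger co-repressor genes that include Ehmt1, Ehmt2, Wiz and Zfp518b. Of these 10, 1 was higher in WT and 3 in KO cells, or 10% and 30%, near the 8.24% and 30.1% of all genes. The KO count was 6 with arrays centred. By limma Trim28 rose in KO cells by 0.72 ± 0.16 (adjusted p = 0.00319) and Ehmt2, a histone methyltransferase, by 0.45 ± 0.09 (adjusted p = 0.000934). Setdb1, another histone methyltransferase, gave 0.02 ± 0.09 in KO cells (adjusted p = 0.918).

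Ttc30a1, the intraflagellar transport subunit, read 6.26, 6.48 and 6.58 in isotonic and 7.09, 7.24 and 7.05 in hypertonic WT cells. In KO cells it read 6.79, 6.75 and 6.59 and then 5.70, 5.71 and 6.23, and with Torin1 6.08, 6.35 and 6.27 and then 6.62, 6.76 and 6.83. No isotonic array overlapped a hypertonic one in any of the 3 settings. The changes were 0.69 ± 0.14 in WT and -0.83 ± 0.14 in KO, where hypertonic arrays 1 and 2 lay below the filter level of 5.86. Ttc30a1 has near-identical neighbours, and a second probe set that names Ttc30a1, Ttc30a2 and Ttc30b together gave 0.39 in WT, with overlapping arrays, and -1.44 in KO, without overlap. Ttc30b read alone gave 0.05 ± 0.39 in WT and fell by 1.68 ± 0.39 in KO cells (adjusted p = 0.00363), so the fall in KO cells was seen in all 3 readings and the WT change without overlap in 1 of them. With Torin1 the joint probe set gave 0.14, with overlapping arrays, and Ttc30b gave -0.13 ± 0.39. The Torin1 values given below for Ttc30a1 are thus those of its own probe set only. Signal of one copy on probes of another cannot be told apart here.

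Of 28 intraflagellar transport genes, 1 was higher and 5 lower in hypertonic WT cells (21.4%), and 1 was higher and 16 lower in KO cells (60.7%; 3 and 15 with arrays centred), with a median KO change of -0.52 against 0.02 over all genes. Hspb11, also called Ift25, fell by 1.21 ± 0.12 in WT (adjusted p = 7.96e-05) and by 0.82 ± 0.12 in KO cells (adjusted p = 8.53e-05), and Ift43 by 1.08 ± 0.13 (adjusted p = 0.00044) and 0.88 ± 0.13 (adjusted p = 0.000135). Wdr19, a subunit of the retrograde complex, fell in KO cells by 1.23 ± 0.15 (adjusted p = 2.55e-05) and gave -0.27 ± 0.15 in WT cells (adjusted p = 0.306). Ift81 fell in KO cells by 1.59 ± 0.22 (adjusted p = 7.72e-05) and gave -0.58 ± 0.22 in WT cells (adjusted p = 0.124).

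Bola1 read 9.60, 9.73 and 9.53 in isotonic and 10.16, 10.44 and 10.14 in hypertonic WT cells. KO arrays read 10.10, 9.89 and 9.70 and then 9.19, 8.80 and 9.31, and Torin1 arrays 9.65, 9.65 and 9.39 and then 10.08, 10.31 and 10. The changes were 0.63 ± 0.14 in WT and -0.80 ± 0.14 in KO, from isotonic levels that overlapped between the lines. Among its relatives, Bola2 gave 0.19 ± 0.20 and 0.22 ± 0.20 and passed in neither line, and Bola3, which delivers iron-sulfur clusters in mitochondria, gave -0.34 ± 0.14 in WT and fell by 0.66 ± 0.14 in KO cells (adjusted p = 0.00242). Of 16 iron-sulfur cluster assembly genes, 1 was higher and 3 lower in WT (25.0%) and 1 higher and 7 lower in KO cells (50%). The latter became 4 and 7 with arrays centred on their medians, and the list's KO median went from -0.10 to 0.05. Isca2, a late-acting assembly factor, fell in KO cells by 0.90 ± 0.09 (adjusted p = 4.54e-06), and Nubpl, an assembly factor of complex I, by 0.64 ± 0.13 in WT (adjusted p = 0.00713) and 0.67 ± 0.13 in KO cells (adjusted p = 0.000926), the former lost in a fit of the untreated WT groups alone (adjusted p = 0.0769).

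Amacr had the smallest WT change of the 10. It read 8.37, 8.64 and 8.51 in isotonic and 8.76, 9.09 and 9.25 in hypertonic WT cells, and 9.06, 8.81 and 9.0 and then 8.10, 7.99 and 8.23 in KO cells. Torin1 arrays read 8.38, 8.54 and 8.45 and then 8.68, 8.88 and 8.91. The changes were 0.53 ± 0.12 in WT and -0.85 ± 0.12 in KO. Of 27 genes of peroxisomes and their fatty acid oxidation, 1 was higher and 4 lower in WT (18.5%) and 1 higher and 15 lower in KO cells (59.3%; 4 and 12 with arrays centred), with a median KO change of -0.47. Among them Hacl1, which shortens branched acids, fell in KO cells by 1.40 ± 0.21 (adjusted p = 0.000151) and in WT cells by 1.03 ± 0.21 (adjusted p = 0.00822), the latter lost without hypertonic WT array 1 (adjusted p = 0.0515) and in a fit of the untreated WT groups alone (adjusted p = 0.0913). Pex3, which places peroxisomal membrane proteins, fell in KO cells by 1.19 ± 0.13 (adjusted p = 1.37e-05). Pex3 gave -0.16 ± 0.13 in WT cells (adjusted p = 0.551).

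Scrn3 read 8.43, 8.37 and 8.32 in isotonic and 8.58, 9.28 and 9.45 in hypertonic WT cells, where array 1 moved least. KO arrays read 9.81, 9.83 and 9.46 and then 8.77, 8.84 and 8.82, and Torin1 arrays 8.36, 8.40 and 8.14 and then 9.01, 9.05 and 8.92. The changes were 0.73 ± 0.17 in WT and -0.88 ± 0.17 in KO. The KO line started 1.32 ± 0.17 higher and ended at -0.29 ± 0.17 relative to WT, with overlapping arrays, so the lines lay closer together in hypertonic medium. Scrn1 and Scrn2 gave -0.02 ± 0.19 and 0.10 ± 0.10 in WT and -0.10 ± 0.19 and -0.10 ± 0.10 in KO cells and passed in neither.

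Tmem229b read 7.91, 7.91 and 8.06 in isotonic and 8.36, 8.46 and 8.96 in hypertonic WT cells. KO arrays read 7.91, 7.98 and 7.60 and then 7.24, 7.21 and 6.91, and Torin1 arrays 7.89, 7.91 and 8.0 and then 8.61, 8.61 and 8.76. The isotonic groups lay together and the hypertonic groups apart, with changes of 0.63 ± 0.14 in WT and -0.71 ± 0.14 in KO. A second probe set of Tmem229b gave 0.26 in WT and -0.30 in KO, both with overlapping arrays, and 0.37 with Torin1, without overlap. The probe sets thus had the same direction and different sizes.

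**Figure D1:**
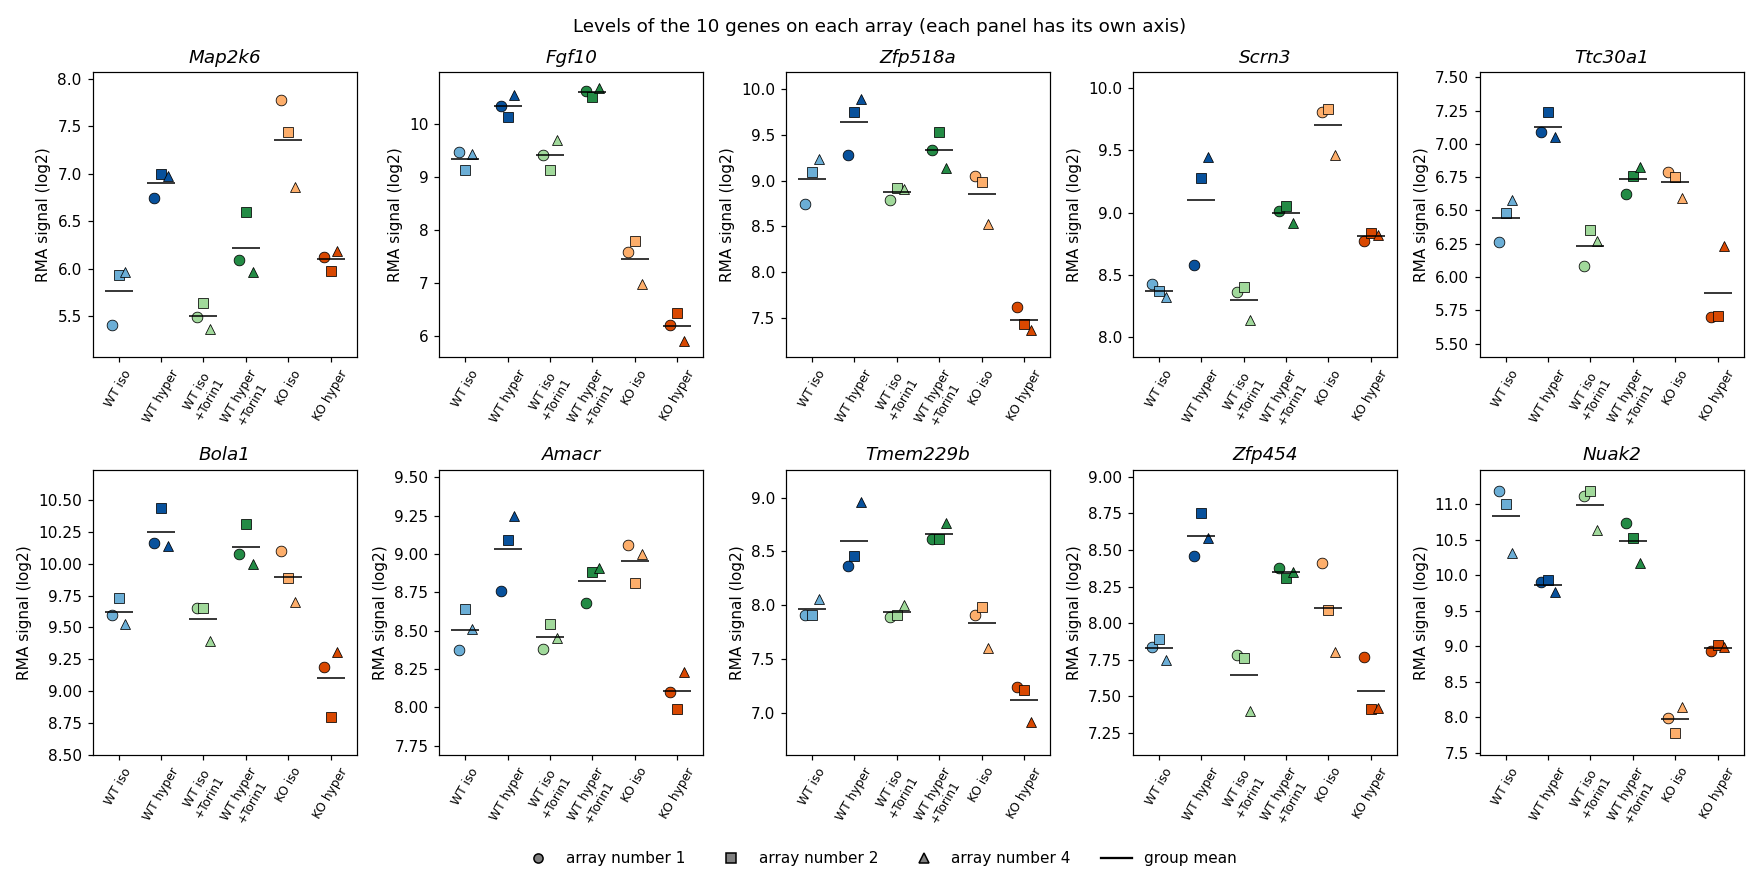
Signal (log2) of each of the 10 genes on the 18 arrays, by group; symbols are array numbers, lines are group means, and each panel has its own vertical axis. In 9 panels the hypertonic WT arrays lie above and the hypertonic KO arrays below their isotonic arrays, and in the Nuak2 panel the reverse is seen.

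Set side by side, 9 of the 10 genes were higher in hypertonic WT cells by 0.53 to 1.14 and lower in hypertonic KO cells by 0.57 to 1.38, and Nuak2 was the reverse. The medians of the 9 were 0.69 in WT and -0.85 in KO, against 0.02 for all genes in both. All 10 had arrays that did not overlap in either line, on the arrays used for the choice; this held for 25.3% of all genes in WT, 45.6% in KO and 1.81% in both with opposite directions. It follows from the lack of overlap that direction was the same for arrays numbered 1, 2 and 4 in all 10 genes and both lines. Without isotonic KO array 1 the KO changes were -1.06 for Map2k6, -1.20 for Fgf10, -1.28 for Zfp518a, -0.83 for Scrn3, -0.79 for Ttc30a1, -0.70 for Bola1, -0.80 for Amacr, -0.67 for Tmem229b, -0.42 for Zfp454 and 1.02 for Nuak2. With that array counted as WT, the WT change was 0.64 for Map2k6, 0.37 for Scrn3 and -0.27 for Nuak2.

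In isotonic medium the arrays of the lines did not overlap for 6 of the 10, as for 31.3% of all genes: Map2k6, Scrn3, Amacr and Ttc30a1 were higher and Fgf10 and Nuak2 lower in KO cells. In hypertonic medium all 10 were lower in KO than in WT cells, 9 of them without overlap and Scrn3 with it, where 44.8% of all genes did not overlap and 23.0% were lower without overlap. The differences ran from -0.29 for Scrn3 to -4.17 for Fgf10. These comparisons use the arrays on which the genes were chosen and carry no test.

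Across the 15711 genes, 1295 (8.24%; 3.94% higher and 4.3% lower) passed in hypertonic against isotonic WT cells and 4734 (30.1%; 12.9% higher and 17.2% lower) in KO cells, at an adjusted p below 0.05 by limma. The difference between the lines passed for 1492 genes (9.5%; 3.35% higher and 6.15% lower in KO). In both lines with the same direction there were 765 genes (4.87%), and with opposite directions 43 (0.274%), of which 32 were higher in WT and lower in KO (0.204%) and 11 the reverse (0.07%). The 10 genes are among the 43, and by size of the line difference they hold ranks 3 to 15. Slc5a3, the myo-inositol transporter and a known NFAT5 target, ranked first at -4.38, with 2.86 in WT and -1.52 in KO. Tnfrsf23, a decoy receptor for TRAIL, followed at -2.66, and Slc1a3, a glutamate transporter, stood between Map2k6 and Fgf10 at -2.35. H1f10, a linker histone, at -1.64 and Tfcp2l1, a transcription factor, at 1.59 also lay within the range of the 10. Just inside the lowest rank chosen was Zfp454 at -1.34, and just outside were Cyp2u1 at -1.32 and Card6 at -1.26.

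The count of 43 moved with single arrays and settings. It was 103 with array number as a block and 9 when each comparison was fitted on its own groups alone, without the Torin1 arrays. With single arrays left out it ran from 13 to 76. Leaving out hypertonic WT array 2 gave 13, and leaving out isotonic WT arrays 2, 1 or 4 gave 22, 26 and 26. Hypertonic KO array 2 left out gave 27, and array 4 of that group 76. With isotonic KO array 1 counted as WT it was 24, and with the arrays numbered 4 left out 222.

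**Figure D2:**
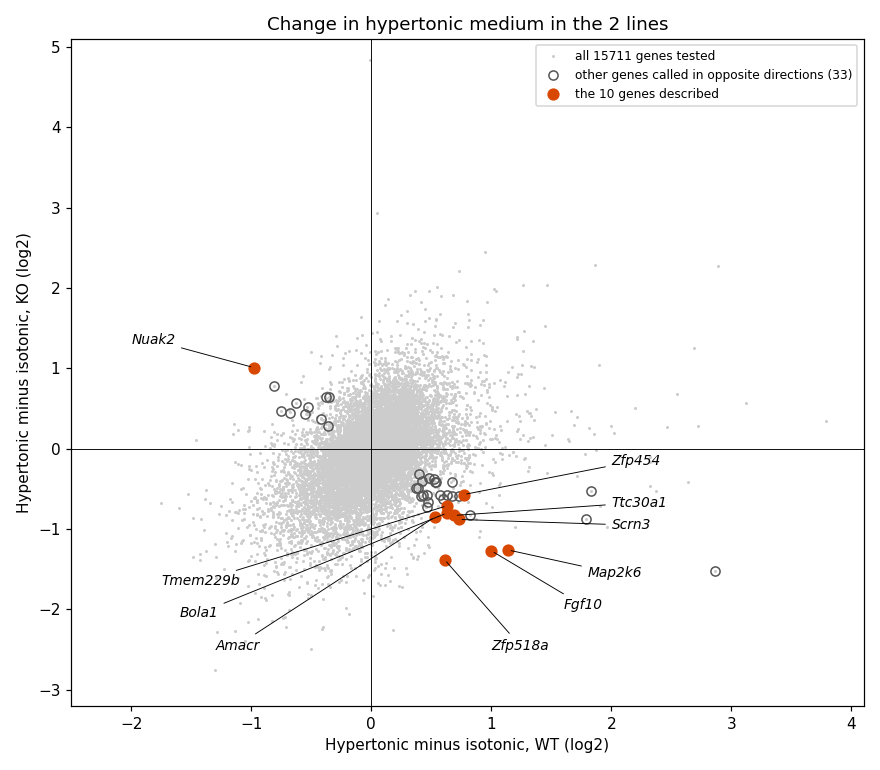
Change from isotonic to hypertonic medium (log2) in WT cells on the horizontal and in KO cells on the vertical axis, 1 point per gene for 15711 genes; filled points are the 10 genes and open circles the other 33 called in opposite directions. Of the 10, 9 lie at lower right and Nuak2 at upper left, and Slc5a3 is the open circle farthest to the lower right, at 2.86 and -1.52.

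The arrays with Torin1 did not enter the WT and KO changes that chose the genes, and the hypertonic change with Torin1 was tested, with reserves. One reserve is that results of these data were known when the genes were chosen. Another is that the spread was estimated over all 18 arrays, so the standard errors and adjusted p also draw on the WT and KO arrays used for the choice. The fit of the 2 Torin1 groups alone, given below, does not use those arrays. All 10 had the direction of the WT change in each of the 3 array numbers. For 9 of them the arrays did not overlap, which fixes this, where 20.2% of all genes showed no overlap. By mean change, all 33 other genes called in opposite directions had the direction of the WT change too. The change passed for 5 of the 10 against 3.37% of all genes, all 5 of them increases, where 1.65% of all genes were higher and 1.72% lower. Fgf10 rose by 1.19 ± 0.20, or 2.28-fold (limma, adjusted p = 0.00472), Tmem229b by 0.73 ± 0.14 (adjusted p = 0.0121), Zfp454 by 0.70 ± 0.15 (adjusted p = 0.0171), Scrn3 by 0.70 ± 0.17 (adjusted p = 0.0327) and Bola1 by 0.56 ± 0.14 (adjusted p = 0.0441). The other 5 did not pass: Ttc30a1 gave 0.50 ± 0.14 (adjusted p = 0.0561), Map2k6 0.72 ± 0.21 (adjusted p = 0.0762), Amacr 0.36 ± 0.12 (adjusted p = 0.129), Zfp518a 0.45 ± 0.18 (adjusted p = 0.188) and Nuak2 -0.50 ± 0.20 (adjusted p = 0.208). Of the genes that passed in WT cells 31.0% passed with Torin1 in the same direction, as did 39.5% of the 43 genes of opposite direction and 36.4% of the 33 among them that are not described here.

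Several of these calls were close to the threshold. With array number as a block 7 of the 10 passed, Ttc30a1 with an adjusted p of 0.0251 and Map2k6 with 0.0435 joining the 5, where 7.86% of all genes passed. In a fit of the 2 Torin1 groups alone 0 of the 10 passed, and 23 genes passed in all. Fgf10 had an adjusted p of 0.0508 there. All 10 had an unadjusted p below 0.05 in that fit. The share of all genes at that level was not counted, so this is no result about the 10. With isotonic KO array 1 counted as WT 2 passed, where 2.0% of all genes did, and Fgf10 had an adjusted p of 0.139. Over 29 alternatives the adjusted p ran from 0.000216 to 0.139 for Fgf10, 0.000598 to 0.0556 for Tmem229b, 0.00486 to 0.0747 for Zfp454, 0.00357 to 0.323 for Scrn3, 0.0248 to 0.204 for Bola1, 0.0168 to 0.203 for Ttc30a1 and 0.0212 to 0.484 for Map2k6.

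Among the fits with 1 array left out, Fgf10 passed in all. Tmem229b was lost without isotonic Torin1 array 1 (adjusted p = 0.0556), and Zfp454 without isotonic Torin1 array 4 (0.0713) or hypertonic Torin1 arrays 1 (0.05) and 2 (0.0629). Scrn3 was lost without any one of the 6 Torin1 arrays, at 0.051 to 0.13. Bola1 was lost without isotonic WT arrays 1, 2 or 4, hypertonic WT array 1, isotonic Torin1 arrays 1, 2 or 4, hypertonic Torin1 arrays 1 or 2, isotonic KO array 2 or hypertonic KO array 1, at 0.0503 to 0.204. Map2k6 passed without isotonic KO array 4 (0.0362) and Ttc30a1 without hypertonic KO array 4 (0.0168). With all arrays numbered 4 left out 9 of the 10 passed, where 9.88% of all genes did.

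By size, the change with Torin1 was 51.4% of the WT change for Nuak2, 63.4% for Map2k6, 68.9% for Amacr, 72.6% for Ttc30a1 and 74.0% for Zfp518a. It was 90.0% for Bola1, 90.8% for Zfp454, 95.5% for Scrn3, 114.4% for Tmem229b and 119.1% for Fgf10. The Torin1 change minus the WT change ran from -0.42 ± 0.30 for Map2k6 to 0.48 ± 0.29 for Nuak2, and it carries no test because the WT arrays were used for the choice. In isotonic medium the arrays with and without Torin1 overlapped for all 10 genes, where 6.01% of all genes did not overlap, with differences of 0.03 to 0.27 in size. In hypertonic medium the arrays with and without Torin1 stood apart for 4 of the 10, as for 15.6% of all genes, with Torin1 lower for Map2k6 (-0.68 ± 0.21), Ttc30a1 (-0.39 ± 0.14) and Zfp454 (-0.25 ± 0.15) and higher for Nuak2 (0.62 ± 0.20).

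**Figure D3:**
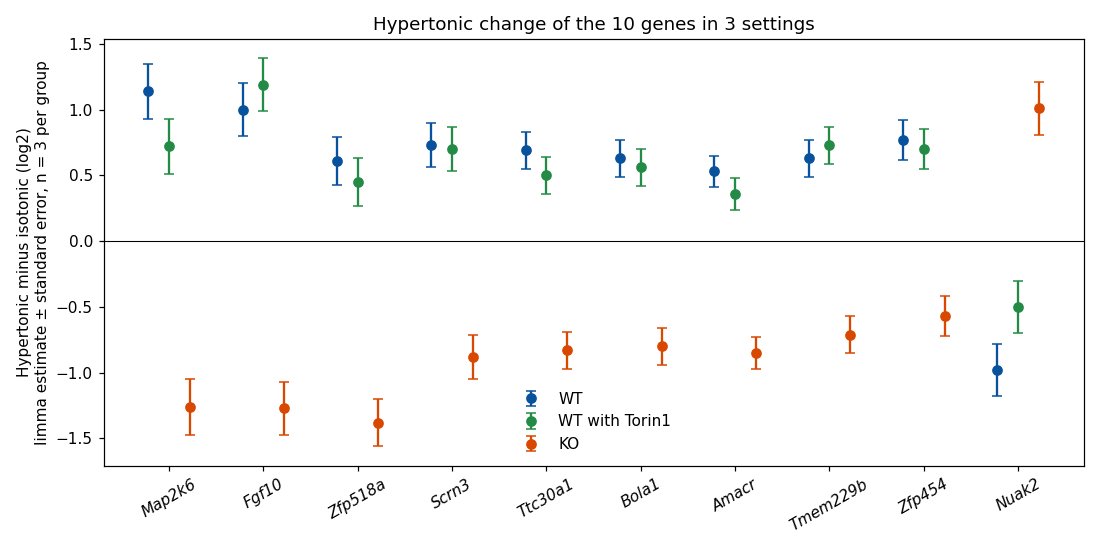
Hypertonic minus isotonic signal (log2) of the 10 genes in WT cells, WT cells with Torin1 and KO cells; points are limma estimates and bars standard errors, with 3 arrays per group. WT and Torin1 points share a side of 0 for every gene and the KO point is on the other side.

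Of 10 relatives that could be read, Map2k3, Map2k4, Fgf7, Zfp518b, Scrn1, Scrn2, Ttc30b, Bola2, Bola3 and Nuak1, none was called in opposite directions, nor did any have an unadjusted p below 0.05 in both lines with opposite signs. Ttc30a2 has no probe set of its own and Tmem229a did not pass the filter. Over the 8 lists that hold the pathways of the 10 genes, 164 of 181 genes were tested. In hypertonic WT cells 9 were higher and 13 lower (13.4%), in KO cells 23 higher and 51 lower (45.1%) and in WT cells with Torin1 3 higher and 3 lower (3.66%, against 3.37% of all genes), and 0 of 164 were called in opposite directions by limma, where 0.274% of all genes were. At an unadjusted p below 0.05 in both lines 2 of the 164 had opposite directions, as had 1.37% of all genes (215). The WT count of 22 was 14 without isotonic WT array 1 and 8, 13 and 34 without hypertonic WT arrays 1, 2 and 4. The Torin1 count of 6 was 3 without isotonic Torin1 array 1 or 2 or hypertonic Torin1 array 2, 10 without hypertonic Torin1 array 4 and 14 without hypertonic WT array 4.

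**Figure D4:**
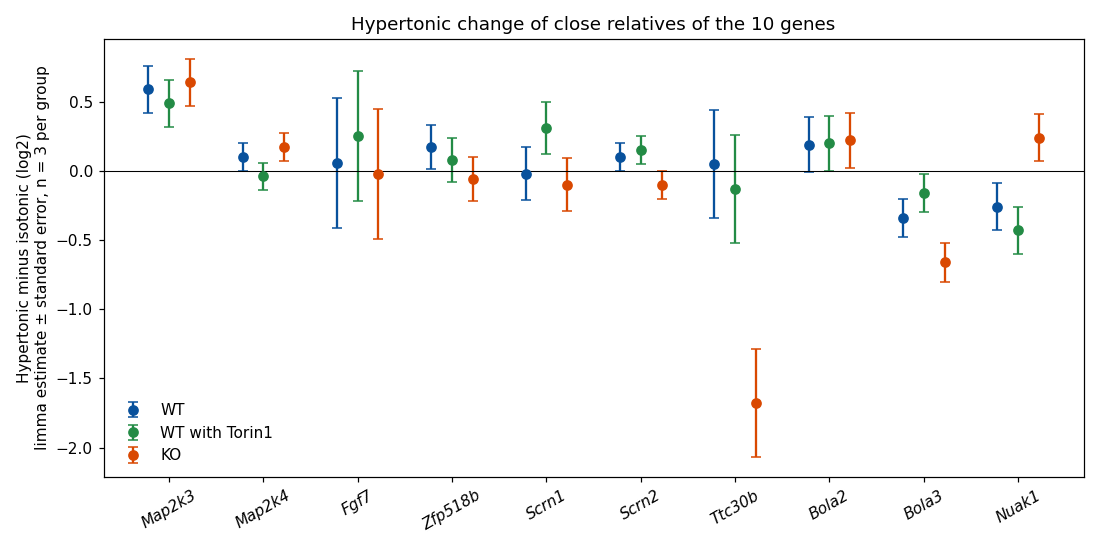
Hypertonic minus isotonic signal (log2) of 10 close relatives in WT cells, WT cells with Torin1 and KO cells; points are limma estimates and bars standard errors, with 3 arrays per group. The lowest point is Ttc30b in KO cells at -1.68, and the bars of Fgf7 are the widest, at 0.47 to each side.

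Across the 18 arrays the 9 genes other than Nuak2 correlated with one another at r from -0.20 to 0.92, with a median of 0.71 over 36 pairs, and Nuak2 with them at -0.77 to 0.67. The arrays share lines, media and array numbers, so these values are a description and carry no p. The most similar genes over the 18 arrays were Slc5a3 for Map2k6 (r = 0.879), Syt11 and Osbpl6 for Fgf10 (both 0.968), Efcab7 for Zfp518a (0.968), Rnf181 for Scrn3 (0.894) and Pomt2 for Ttc30a1 (0.913). Those for the rest were Srrd for Bola1 (0.942), Ppp1r11 for Amacr (0.913), Sppl2b for Tmem229b (0.949), Tnfrsf23 for Zfp454 (0.886) and Abca2 for Nuak2 (0.958). Of these, Slc5a3, Srrd, Sppl2b and Tnfrsf23 are among the 43 genes called in opposite directions.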

How the data were processed

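Total RNA of 18 MEF samples was read on Affymetrix mouse gene arrays. The deposited values are log2 signals made by the authors with RMA in R 2.11.1, per the submitters' processing notes. These signals were taken as deposited, and their genome build was not given in the sources used here. Of 34760 probe sets, 21640 name 1 gene, 1321 several and 11799 none, and 21553 symbols matched the GRCm38.p6 gene table by gene ID, which served for names and neighbours. Of several probe sets (954 genes) the one with the highest mean stood for the gene, and genes were kept whose highest group mean exceeded the 30th percentile of the signals. RMA shrinks differences near background, and probes shared by gene copies blend them.

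limma 3.58.1 in R 4.3.3 modelled the 6 group means over the 18 arrays (12 residual and 3.29 prior degrees of freedom), with Benjamini-Hochberg adjustment over 15711 genes and calls at an adjusted p below 0.05. The members and gene lists were chosen with earlier results of these data known. Named genes are the members, their relatives, list genes among the largest changes, the neighbours in rank among genes of opposite direction and the most correlated genes. Most list genes given had a named call that held with each array left out, a choice made after their values were seen. Exceptions are the FGF genes lower in KO cells and the WT calls of Hacl1 and Map2k3. Setdb1, Pex10 and Mapkapk5 were given without being followed in this way. Simulated data with changes of 1 and 2 log2 tested the fit. Same-numbered arrays deviated together in each hypertonic comparison (r from 0.361 to 0.751 over 9 pairs), a pairing seen in the data and not stated in the labels. A block on array number was therefore run as an alternative. Counts and adjusted p come from the fit without this block, which leaves the pairing out, unless another setting is named. Other alternatives were the filter, the probe set rule, 3 scalings, the prior, fits on the groups compared, isotonic KO array 1 as WT, number 4 left out and each array left out. The number of arrays limits the precision. Promoter windows are RefSeq's.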

Additional observations from a re-analysis of the deposited data

Results flagged for a closer look

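The hypertonic change differed between the lines for the 10 genes, which were chosen for this, and the values are given without a test. KO minus WT, it was -2.40 for Map2k6, -2.27 for Fgf10, -1.99 for Zfp518a, -1.61 for Scrn3, -1.52 for Ttc30a1, -1.43 for Bola1, -1.38 for Amacr, -1.35 for Tmem229b, -1.34 for Zfp454 and 1.99 for Nuak2, with standard errors of 0.18 to 0.30.

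Among the genes of the 8 lists, 7 differed upward and 12 downward between the lines by the limma test of the difference itself (11.6%, against 9.5% of all genes). Only the named genes were followed with each array left out. Of these, the ones that passed throughout are Dusp16 (1.5 ± 0.30, adjusted p = 0.00637), Isca2 (-0.64 ± 0.13, adjusted p = 0.00551), Pex3 (-1.03 ± 0.19, adjusted p = 0.00396) and Wdr19 (-0.96 ± 0.21, adjusted p = 0.0109). Called genes not followed in this way include Pex10 (-1.27 ± 0.27, adjusted p = 0.00969) and Mapkapk5 (0.68 ± 0.15, adjusted p = 0.0107). Over 29 alternatives the adjusted p ran from 2.34e-05 to 0.0228 for Dusp16, 0.00142 to 0.0226 for Isca2, 0.000217 to 0.0607 for Pex3 and 0.00261 to 0.0344 for Wdr19, and the Pex3 call was lost with isotonic KO array 1 counted as WT.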

How the results depend on the processing

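All 870 values of the 10 genes under the alternatives kept their direction. These are the WT change, the KO change and their difference, on which the genes were chosen. As the arrays did not overlap in either line, leaving out 1 array could not reverse a direction, so the kept directions are no support. Of the values 5 moved by more than 1 SD, all with isotonic KO array 1 counted as WT: the WT changes of Map2k6 (0.64), Fgf10 (1.44) and Nuak2 (-0.27) and the KO minus WT differences of Map2k6 (-1.69) and Nuak2 (1.28). The value of Etv5, an FGF target gene, was -0.11 in WT cells and 0.41 without the arrays numbered 4. The cause was not tested, here or for the counts that follow.

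Array number as a replicate block gave 2360 genes called in WT cells, 1235 with Torin1, 2280 for the difference, 103 in opposite directions and 20 list genes with Torin1; its effect on members is given with the Torin1 results. Fits on only the groups compared gave 267 genes in WT, 23 with Torin1, 0 members, 9 opposite genes, and 4 list genes in WT and 1 with Torin1. With isotonic KO array 1 as WT these were 315 genes with Torin1, 764 for the difference, 2 members, 24 opposite genes and 3 list genes with Torin1. Without number 4 they were 3335 genes in WT, 1555 with Torin1, 2804 for the difference, 9 members, 222 opposite genes, and 58 list genes in WT and 33 with Torin1. Quantile normalization gave 12 and cyclic loess 10 list genes with Torin1.

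With 1 array left out the counts ran from 534 to 1836 in WT (534 and 635 without hypertonic WT arrays 1 and 2, 734 and 781 without isotonic WT arrays 1 and 2), 3796 to 4934 in KO, 161 to 675 with Torin1 (161 without hypertonic Torin1 array 2, and 183, 270 and 291 without isotonic Torin1 arrays 1, 2 and 4), 832 to 1745 for the difference (832 without hypertonic WT array 2, 992 and 908 without hypertonic KO arrays 1 and 2), 2 to 6 members (2 without isotonic Torin1 array 1 or 4 or hypertonic Torin1 array 1 or 2, and 3 without isotonic Torin1 array 2), 13 to 76 opposite genes, and 8 to 34 list genes in WT, 68 to 78 in KO and 3 to 14 with Torin1. Of 64 named calls of list genes and relatives, 45 held with each array left out and 36 under all alternatives. Centring arrays on their medians raised the share of higher calls in KO from 42.9% to 69.3% and for the difference from 35.3% to 70.0%, and quantile normalization that with Torin1 from 49.1% to 59.1%.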
